A study of Homo sapiens with 6 samples.

Results

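The genes examined here are 9 genes of MHC class I antigen presentation: HLA-B, HLA-C, HLA-E, HLA-F, B2M, TAP1, TAP2, TAPBP and NLRC5. They were chosen by name, with their change between the groups already known, out of 58243 gene identifiers with counts. Their differences between the groups are therefore given as a description. The calls that a fit across all genes gave them are stated beside the share of all genes called and are no evidence about them. The other genes of the pathway were tested, but their list was also chosen with earlier results of these data known. Their p-values do not allow for that choice.

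The libraries are 4sU-seq, the sequencing of RNA that took up 4-thiouridine during a short pulse and was then pulled out, so that recently made transcripts are enriched. The cells were A375, an established human melanoma line. They had been stably transfected either with an empty vector (EV, 3 libraries, B1 to B3) or with a plasmid for HA-tagged human PRL3, the phosphatase encoded by PTP4A3 (PRL3, 3 libraries, B9 to B11). Both groups were kept in 100 µg/ml hygromycin B and were labelled with 500 µM 4-thiouridine for 20 min. The promoter of the plasmid, whether each line was a clone or a pool, and whether the libraries of a group came from separate cultures are not given in the sources used here, so the p-values measure only the spread between these libraries, which may be technical.

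Class I molecules carry peptides of intracellular proteins to the cell surface, where cytotoxic T cells read them. A polymorphic heavy chain pairs with the light chain β2-microglobulin, and peptides cut by the proteasome enter the endoplasmic reticulum through the TAP transporter and are loaded with the help of tapasin. NLRC5 is a transactivator that acts on the promoters of these genes together with factors bound to the conserved SXY module, and interferons and NF-kappaB also act on them. Tumour cells, melanoma among them, can escape T cells by losing parts of this machinery.

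The sequence just upstream of the transcription start is shown for 5 genes: the heavy chains with an entry, whose promoters resemble one another, and B2M and TAP1, which differed most between the groups outside the heavy chains. RefSeq promoters on GRCh38.p14, from 250 bases before to 50 after the start, were found for 7 of the 9 genes, and HLA-E and NLRC5 had no entry. Each line gives the 150 bases before the start on the gene's own strand, 5′ to 3′. Capitals mark a match on either strand to the cyclic-AMP response element core (TGACG), the inverted CCAAT box (ATTGG), the interferon-stimulated response element core (GAAANNGAAA) or the NF-kappaB motif.
HLA-B, chr6:31357180-31357329, minus strand: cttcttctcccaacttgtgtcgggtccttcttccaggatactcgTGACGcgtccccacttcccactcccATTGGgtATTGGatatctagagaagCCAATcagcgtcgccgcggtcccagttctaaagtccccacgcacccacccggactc
HLA-C, chr6:31272093-31272242, minus strand: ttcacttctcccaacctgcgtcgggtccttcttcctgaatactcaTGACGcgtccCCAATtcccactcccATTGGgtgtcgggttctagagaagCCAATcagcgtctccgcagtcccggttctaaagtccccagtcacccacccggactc
HLA-F, chr6:29723284-29723433, plus strand: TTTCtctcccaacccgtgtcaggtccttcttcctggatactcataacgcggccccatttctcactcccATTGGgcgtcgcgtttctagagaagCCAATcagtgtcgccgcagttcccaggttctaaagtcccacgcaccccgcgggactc
B2M, chr15:44711367-44711516, plus strand: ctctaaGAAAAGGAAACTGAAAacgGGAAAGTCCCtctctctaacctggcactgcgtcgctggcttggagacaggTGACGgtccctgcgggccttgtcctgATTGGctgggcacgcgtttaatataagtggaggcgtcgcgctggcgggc
TAP1, chr6:32853705-32853854, minus strand: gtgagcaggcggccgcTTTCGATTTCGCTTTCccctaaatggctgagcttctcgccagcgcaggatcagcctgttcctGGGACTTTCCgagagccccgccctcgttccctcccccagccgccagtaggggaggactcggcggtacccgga
The HLA-B and HLA-C stretches were 88.1% identical in a global alignment, and HLA-F was 83.6% identical to HLA-B and 83.0% to HLA-C. B2M and TAP1 were 42.0% and 43.9% identical to HLA-B. In HLA-B and HLA-C a cyclic-AMP response element core lay just before CCAAT boxes in both orientations, and HLA-F held the CCAAT boxes without that core. The interferon-stimulated response element core of HLA-F runs past the left edge of its stretch. In B2M, TAP1 and TAPBP 2 matches to this core overlapped one another, and the NF-kappaB matches of HLA-B overlapped in the same way. Matches to different motifs did not overlap in these genes.

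Over the whole promoter window, the interferon-stimulated response element core was present in 5 of the 7 genes (HLA-F, B2M, TAP1, TAP2 and TAPBP) and in 3.57% of all 35116 promoters in the table. The NF-kappaB motif was present in 5 of 7 (HLA-B, HLA-C, B2M, TAP1 and TAPBP) against 5.91% of all promoters. The cyclic-AMP response element core was present in 4 of 7 (HLA-B, HLA-C, B2M and TAP2) against 24.6%, and the inverted CCAAT box in 5 of 7 (HLA-B, HLA-C, HLA-F, B2M and TAP1) against 34.6%. An E-box written CACGTG or CATGTG was in none of the 7, against 17.6% of all promoters, and a TATAAA box was in TAP2 alone, against 11.5%. The genes were not picked at random, so these shares are descriptions of the windows and not binding sites.

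Between 47158709 and 57952035 reads were assigned to genes in the EV libraries, and between 36532207 and 56511290 in the PRL3 libraries. Reads outside all annotated exons made up 28.7 to 41.1% of the uniquely aligned reads in EV and 62.8 to 69.1% in PRL3, without overlap between the groups. The transfected gene PTP4A3 measured 217 ± 59.4 normalized counts in EV and 24387 ± 3796 in PRL3 (SD, n = 3), which fits the labels. Of the melanocyte markers, 4 of 8 passed the filter on low counts, and TYR, MLANA, TYRP1 and DCT did not. At most 10 reads in every library were counted for 2 of the 8. The sum of the 8 markers was 23486 to 32801 normalized counts in EV and 13532 to 16937 in PRL3, most of it from SOX10. SOX10 and S100B were lower in PRL3, at log2 fold changes of -0.85 and -1.38. MITF measured 1208 to 1492 in EV and 1714 to 1809 in PRL3 (0.36, not past the threshold), and PMEL was at -0.33, also not past it. Of the 7 endothelial or epithelial markers, 4 were tested: the keratins KRT8 and KRT18 were lower, at -1.12 and -1.73, and EPCAM (1.03) and VWF (0.26) did not pass the threshold. The part of these differences in the values of the 9 genes was not tested. The 9 leukocyte markers summed to 130 to 183 normalized counts in EV and 137 to 158 in PRL3. Of them, 2 passed the filter on low counts, and 4 had at most 10 reads in every library. The highest value of a single marker in a library was 141 normalized counts. In RNA from whole cultures, fewer cells expressing a gene and less RNA per cell cannot be told apart.

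All 9 genes passed the filter on low counts. In 8 of them every PRL3 library was lower than every EV library, a pattern met by 26.6% of the 23884 genes tested, and in NLRC5 every PRL3 library was higher, which was so for 29.7%. With edgeR's quasi-likelihood test and an adjusted p threshold of 0.05, 6 were past the threshold as lower, against 22.7% of all tested genes and 31.6% of tested protein-coding genes. NLRC5 was past it as higher, against 20.0% and 15.2%. Without PRL3 B9 or PRL3 B11, 4 were past it as lower, and without EV B1, PRL3 B9 or PRL3 B10, 0 were past it as higher. In 15 other fits, which changed the scaling, filter or tool or left out 1 library, the calls were uneven. HLA-B, HLA-C, B2M and TAP1 were past the threshold as lower in 15, HLA-E in 10, and HLA-F, TAP2 and TAPBP in 5 each. NLRC5 was past it as higher in 11. Since the genes were picked on this contrast, nothing is read from these counts. The median log2 fold change of the 9 genes was -0.61, that of all tested genes 0.11 and that of the 14443 tested protein-coding genes -0.15.

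**Figure D1:**
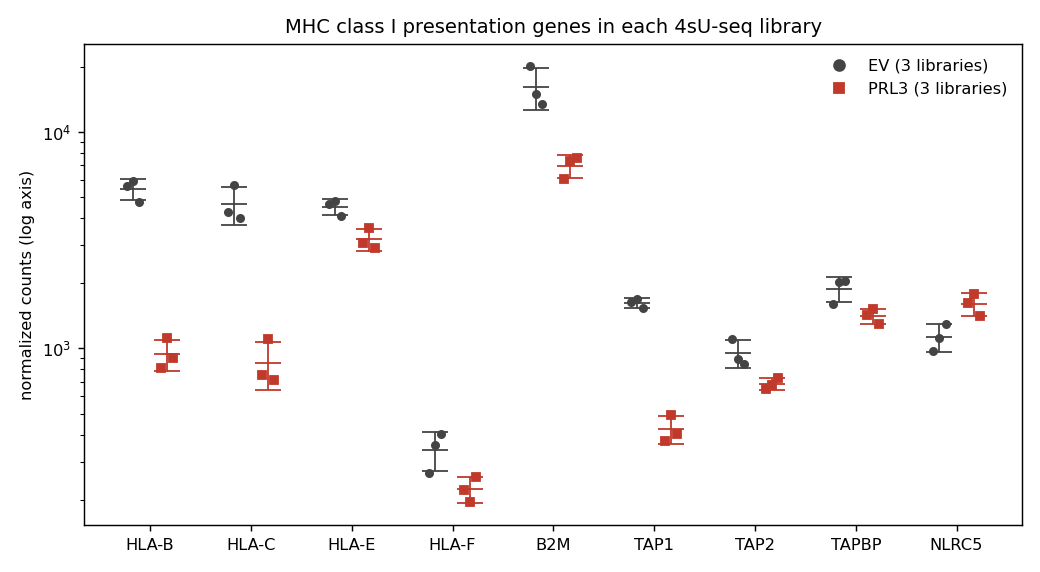
Normalized counts (log axis) of the 9 genes in the 3 EV libraries (grey circles) and the 3 PRL3 libraries (red squares), with bars for the mean and SD. The groups are furthest apart for HLA-B, HLA-C and TAP1, and NLRC5 is the gene in which the PRL3 libraries lie above the EV libraries.

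HLA-B encodes a classical heavy chain (ENSG00000234745, GRCh38 chr6:31353872-31367067, minus strand). It measured 5625, 5909 and 4740 normalized counts in EV B1, B2 and B3, and 813, 1115 and 902 in PRL3 B9, B10 and B11. The EV libraries lay far above the PRL3 libraries, with no overlap. The log2 fold change was -2.52 (SE 0.17), a 5.75-fold lower level, and 72 of the tested protein-coding genes (0.499%) had a lower one. Its annotated span includes a long alternative transcript, and 32.8% of its exonic bases are shared on the same strand with DHFRP2 and MIR6891.

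HLA-C encodes the other classical heavy chain of the set (ENSG00000204525, chr6:31268749-31272130, minus strand). Its normalized counts were 4254, 5680 and 3984 in the EV libraries and 755, 1106 and 717 in the PRL3 libraries. As with HLA-B, the highest library of each group was B2 in EV and B10 in PRL3, and the groups were wide apart. The log2 fold change was -2.43 (SE 0.21), a 5.39-fold lower level, and 95 protein-coding genes (0.658%) had a lower one. The ratio of HLA-B to HLA-C counts was 1.18 ± 0.141 in EV and 1.11 ± 0.128 in PRL3 (SD, n = 3), so the pair kept nearly the same proportion at a much lower level.

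HLA-E is a nonclassical heavy chain, known as the ligand of the NKG2A receptor of natural killer cells (ENSG00000204592, chr6:30489509-30494194, plus strand). It measured 4657, 4767 and 4083 normalized counts in EV and 3072, 3581 and 2899 in PRL3. The groups did not overlap but lay much closer than those of the classical genes. Its log2 fold change was -0.50 (SE 0.15). The ratio of HLA-B to HLA-E was 1.20 ± 0.0395 in EV and 0.296 ± 0.0268 in PRL3.

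HLA-F, another nonclassical heavy chain (ENSG00000204642, chr6:29722775-29738528, plus strand), was the least counted of the 9 genes. Its values were 265, 356 and 401 normalized counts in EV and 221, 194 and 255 in PRL3. EV B1 and PRL3 B11 almost met. The log2 fold change of -0.61 (SE 0.25) was not past the threshold, and 28.0% of its exonic bases lie opposite other genes, HLA-F-AS1 among them.

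Added together, the reads of 17 class I heavy chain genes and pseudogenes, a sum that keeps any read placed on the wrong one of these copies, came to 15037, 17127 and 13610 normalized counts in EV and 5417, 6571 and 5322 in PRL3. This was 15258 ± 1769 and 5770 ± 696 (SD, n = 3), a log2 ratio of -1.40. Reads that aligned to several places or lay on several genes are not in this sum. Over all genes, the former made up 19.2 to 28.6% of aligned reads in EV and 9.04 to 13.6% in PRL3. The latter made up 4.46 to 5.01% and 1.67 to 2.53% of uniquely aligned reads. How many of either came from class I copies was not tested. The 13 copies other than HLA-B, HLA-C, HLA-E and HLA-F went from 351 ± 100.4 to 560 ± 13.4, a log2 ratio of 0.68 in the opposite direction. Among them HLA-L went from 124.7 ± 67.8 normalized counts in EV to 244.5 ± 15.9 in PRL3 (log2 fold change 0.96, not past the threshold). HLA-Z had 1 to 8 reads in EV and 44 to 57 in PRL3 and passed the filter on low counts through its PRL3 libraries. Both are pseudogenes named after their values were seen. HLA-G, the nonclassical gene of the placenta, had no read in EV and at most 3 in PRL3.

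Within this sum the composition differed between the groups. HLA-E made up 29.6% ± 1.61 of these reads in EV and 55.2% ± 1.29 in PRL3 (SD, n = 3), while HLA-B went from 35.6% ± 1.59 to 16.3% ± 1.12 and HLA-C from 30.2% ± 2.58 to 14.7% ± 1.82. HLA-F went from 2.26% ± 0.612 to 3.95% ± 0.927. These are shares of reads, not corrected for transcript length. None of the 9 genes but TAP2 shared a stretch of 150 bases with the transcripts of another gene. At 50 bases, 2.56% of the windows of HLA-B, 6.77% of HLA-C, 6.16% of HLA-E and 1.89% of HLA-F also occurred elsewhere. Only a read lying wholly within such a shared stretch could not be assigned with certainty. The shared stretches of these heavy chain genes were all shorter than 150 bases.

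**Figure D2:**
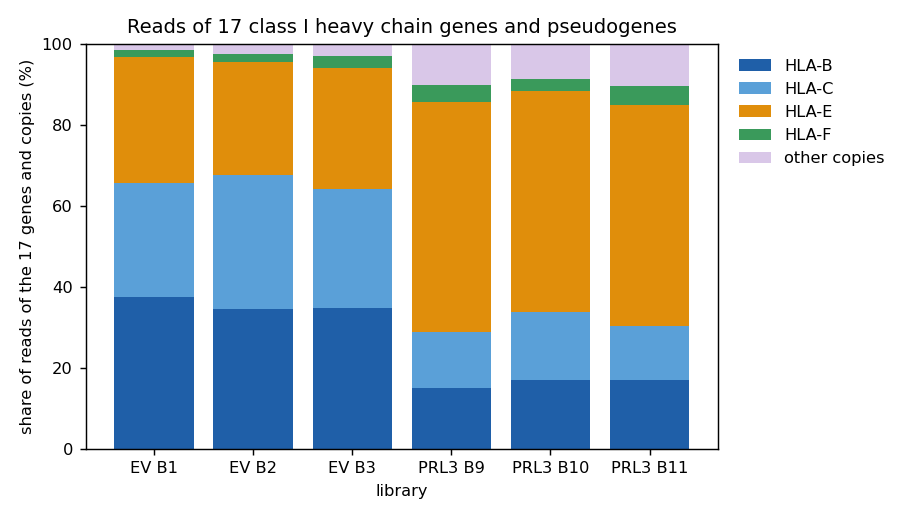
Share of the reads of 17 class I heavy chain genes and pseudogenes (%, stacked bars) taken by each gene in each of the 6 libraries, with the 13 remaining copies pooled. HLA-E takes 27.8 to 31.0% in the EV libraries and 54.5 to 56.7% in the PRL3 libraries, and HLA-B and HLA-C take correspondingly less.

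B2M encodes β2-microglobulin, the light chain of every class I molecule, on a different chromosome from the heavy chains (ENSG00000166710, chr15:44711358-44718851, plus strand). It was the most counted of the 9 genes, with 20151, 14873 and 13381 normalized counts in EV and 6031, 7319 and 7550 in PRL3. EV B1 stood above the other EV libraries, and the lowest EV library was still well above the highest PRL3 library. The log2 fold change was -1.21 (SE 0.18), a 2.32-fold lower level, and 12.6% of protein-coding genes had a lower one. This was a smaller fold than that of the classical heavy chains, and the ratio of B2M to the sum of HLA-B and HLA-C was 1.62 ± 0.385 in EV and 3.94 ± 0.688 in PRL3.

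TAP1 encodes one half-transporter of the heterodimer that pumps peptides into the endoplasmic reticulum (ENSG00000168394, chr6:32845209-32853816, minus strand). Its normalized counts were 1637, 1698 and 1534 in EV and 374, 495 and 403 in PRL3. The spread within each group was small beside the gap. The log2 fold change was -1.93 (SE 0.18), a 3.82-fold lower level, with 2.61% of protein-coding genes below it.

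TAP2, which encodes the partner of TAP1 (ENSG00000204267, chr6:32821833-32838739, minus strand), measured 1109, 896 and 847 normalized counts in EV and 647, 675 and 731 in PRL3. The groups did not overlap, but the log2 fold change was only -0.47 (SE 0.18), and it was 0.02 with library size alone. The ratio of TAP1 to TAP2 was 1.48, 1.89 and 1.81 in EV and 0.578, 0.733 and 0.551 in PRL3. The gene with more counts was thus TAP1 in every EV library and TAP2 in every PRL3 library. These counts are not corrected for length. Per kb of the whole canonical transcript TAP1 was at 604 against 168 for TAP2 in EV, and at 158 against 121 in PRL3. Of the 150-base windows of TAP2, 34.1% also belong to an annotated readthrough gene that had 0 reads in all 6 libraries. Reads falling on the shared exons may thus be missing from the TAP2 count in both groups. The length used for TAP2 includes those exons, so its level per kb may be too low. Its place below TAP1 in PRL3 is therefore not firm.

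TAPBP encodes tapasin, which bridges TAP and the empty heavy chain (ENSG00000231925, chr6:33299694-33314284, minus strand). It measured 1594, 2033 and 2037 normalized counts in EV and 1424, 1517 and 1290 in PRL3. EV B1 lay close to PRL3 B10, and the log2 fold change was -0.42 (SE 0.16), not past the threshold, and 0.07 with library size alone. The ratio of TAP1 to TAPBP was 0.872 ± 0.140 in EV and 0.300 ± 0.0336 in PRL3.

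NLRC5, the transactivator of class I genes, is the longest of the 9 genes (ENSG00000140853, chr16:56989485-57083531, plus strand, 49 exons in the canonical transcript). It measured 972, 1117 and 1298 normalized counts in EV and 1625, 1786 and 1405 in PRL3, so the lowest PRL3 library lay above the highest EV library. Its log2 fold change was 0.51 (SE 0.17), opposite in sign to the other 8 genes. The ratio of NLRC5 to HLA-B counts, not corrected for length, was 0.212 ± 0.0542 in EV and 1.72 ± 0.242 in PRL3. Per kb of canonical transcript NLRC5 stayed below HLA-B, at 166 against 3532 in EV and 237 against 614 in PRL3. The sign of the NLRC5 fold change held under every scaling tried, but with all uniquely aligned reads as library size the value was 0.04. NLRC5 was not past the threshold there or without EV B1, PRL3 B9 or PRL3 B10.

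Divided by the length of the canonical transcript, the level in EV was highest for B2M, at 17110 ± 3772 normalized counts per kb (SD, n = 3), followed by HLA-B at 3532 ± 397, HLA-C at 3009 ± 591 and HLA-E at 1767 ± 144. TAP1 and TAPBP came next at 604 ± 30.8 and 547 ± 73.8, and HLA-F, TAP2 and NLRC5 followed at 230 ± 46.6, 168 ± 24.8 and 166 ± 24.1. HLA-B and HLA-C overlapped between libraries, as did TAP1 with TAPBP and the last 3 genes with their neighbours. In PRL3 the order was B2M at 7388 ± 868, HLA-E at 1250 ± 139, HLA-B at 614 ± 101, HLA-C at 557 ± 139, TAPBP at 409 ± 33.1, NLRC5 at 237 ± 28.2, TAP1 at 158 ± 23.5, HLA-F at 151 ± 20.6 and TAP2 at 121 ± 7.62. HLA-E thus passed both classical genes, and TAP1 moved from the fifth place to the seventh. Between the PRL3 libraries HLA-B and HLA-C overlapped, as did TAP1 and HLA-F, so the order within these pairs is not firm. The length of TAP2 includes exons shared with its readthrough gene, whose reads may be uncounted. The place of TAP2 among its neighbours is thus not firm in either group. With all annotated exons as the length, HLA-B stood below HLA-C and HLA-E already in EV, at 1173 against 1851 and 1541 per kb.

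The remaining genes of the class I pathway were described from a list of 62, of which 61 passed the filter. Of these, 26 fell in PRL3, 4 rose and 31 did not pass the threshold, and their median log2 fold change was -0.33. With library size alone as the scaling, 18 fell and 18 rose. The background is the 31.6% of protein-coding genes that fell and the 15.2% that rose.

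The catalytic proteasome subunits, which cut proteins into peptides, and the proteasome activators together fell in 9 of 9 cases, with a median log2 fold change of -1.71. The immunoproteasome subunits PSMB8, PSMB9 and PSMB10 had log2 fold changes of -2.26 (SE 0.19, adjusted p = 8.62e-06), -2.46 (SE 0.24, adjusted p = 1.34e-05) and -1.81 (SE 0.35, adjusted p = 0.00101). The constitutive subunits PSMB5 and PSMB6 fell as well, by 1.71 and 1.68 on the log2 scale, and so did the activator subunits PSME1 and PSME2, by 2.26 and 1.24. PSMB9 and TAP1 start 488 bases apart on opposite strands. The ratio of TAP1 to PSMB9 was 1.92 ± 0.256 in EV and 2.78 ± 0.406 in PRL3.

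Of the 8 genes of peptide loading, quality control and trimming, 5 fell and 1 rose. PDIA3, the disulfide isomerase of the loading complex, fell by 1.60 on the log2 scale, the chaperones CALR and CANX by 1.28 and 0.68, and the trimming peptidase ERAP1 by 0.73. ERAP2, its paralogue, rose from 277 ± 30.9 to 642 ± 29.6 (log2 fold change 1.21, SE 0.20, adjusted p = 3.38e-04). TAPBPL, a relative of tapasin, had a log2 fold change of 0.24 (SE 0.23, adjusted p = 0.447).

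Among the 9 factors of the SXY module, 2 fell and 1 rose. RFX5, the DNA-binding subunit of the RFX complex, fell by 0.60 on the log2 scale (adjusted p = 0.00436), and RFXANK, another subunit, by 1.30. NFYC, a subunit of the CCAAT-binding factor, rose by 0.41 (adjusted p = 0.0329), but its log2 fold change was -0.07 with all uniquely aligned reads as library size. CIITA, the class II counterpart of NLRC5, had a log2 fold change of 0.27 (SE 0.16, adjusted p = 0.214). Of the 7 interferon and NF-kappaB factors, IRF1 and IRF2 rose by 0.51 and 0.50 (adjusted p = 0.0192 and 0.0171), and IRF3 fell by 1.31. Without PRL3 B10 none of these 3 rises was called, at adjusted p-values of 0.122 for NFYC, 0.0997 for IRF1 and 0.0569 for IRF2. The call was also lost without PRL3 B9 for NFYC and IRF2 (0.0646 and 0.0747), without PRL3 B11 for NFYC and IRF1 (0.0754 and 0.0552) and without EV B1 for NFYC (0.0528).

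Of the 9 interferon receptors, kinases and their inhibitors, 2 fell, IFNGR2 by 1.37 and TYK2 by 0.93 on the log2 scale. The cytosolic and endosomal peptidases fell in 4 of 8 cases, the negative regulators of class I in 2 of 7, and the class I-like heavy chains in 1 of 4. The last was FCGRT, the neonatal Fc receptor, which also pairs with B2M and measured 85.8 ± 20.4 normalized counts in EV and 7.66 ± 3.24 in PRL3 (SD, n = 3). With 6 to 11 reads in each PRL3 library, it passed the filter on low counts through its EV libraries, so the size of its fold is uncertain. RFXANK, IRF3, IFNGR2, TYK2 and FCGRT are named to spell out these small counts and were picked after their values were seen.

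**Figure D3:**
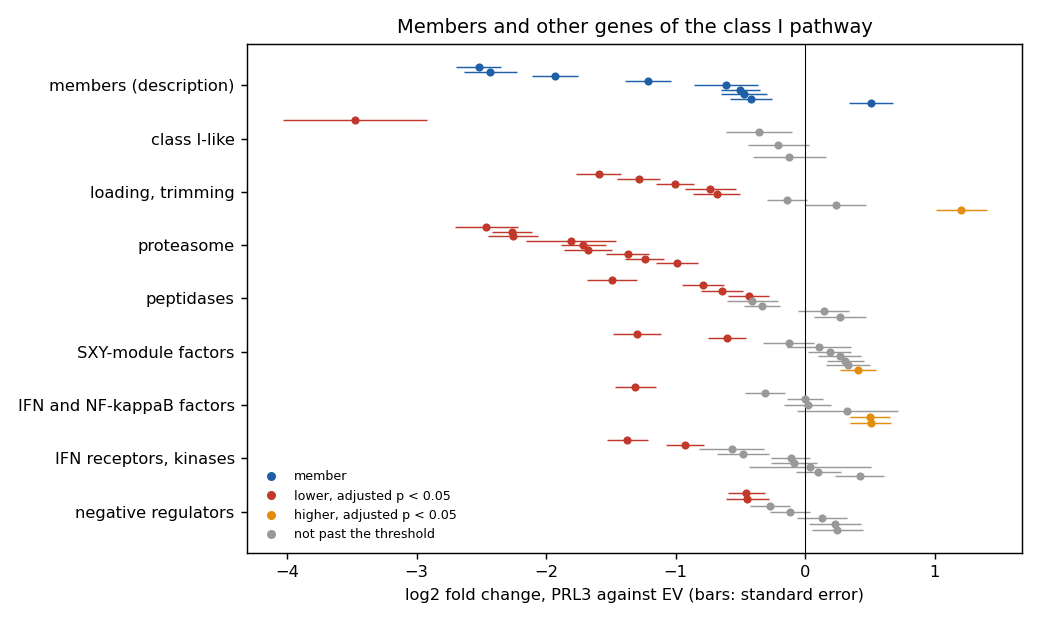
Log2 fold change of PRL3 against EV (points, with bars for the standard error) for the 9 genes, given as a description, and for the 61 tested pathway genes by role. Red points fell and orange points rose at an adjusted p under 0.05, grey points did not pass; all 9 proteasome genes lie left of zero.

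Interferon-stimulated genes, 34 of which were tested, fell in 11 cases and rose in 3, which were MX1, GBP1 and GBP3. Those with the smallest p had fallen: IFITM3, UBE2L6 and IFI35, at log2 fold changes of -2.04, -2.01 and -1.53. The share that fell, 32.4%, was close to the 31.6% of all tested protein-coding genes. MHC class II genes fell in 9 of 12 cases (75%). The ligands of NKG2D, which are relatives of the class I heavy chains, included 1 of 7 that fell, ULBP2, by 0.67 on the log2 scale. ULBP2 and the interferon-stimulated genes named here were likewise picked after their values were seen. Of 7 tested genes listed from the MHC, HLA-F-AS1 opposite HLA-F and PSMB8-AS1 opposite TAP1 among them, 0 passed the threshold with edgeR or DESeq2. With limma-voom 1 passed, and 1 had an unadjusted p under 0.05 in edgeR. Over all tested genes 22.7% fell and 20.0% rose. HCG18, named after its values were seen, averaged 3353 normalized counts in EV, and the others 17.9 to 78.2. At such low counts the lack of calls says little. In HCG18 and HLA-F-AS1 every PRL3 library was above every EV library, as in 29.7% of tested genes.

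All genes of the set except B2M and NLRC5 lie in the MHC on chromosome 6, within 3.592 Mb from the start of HLA-F to the end of TAPBP. Of the 102 other protein-coding genes tested in this interval, 56 fell (54.9%) and 6 rose, with a median log2 fold change of -0.69, against 40 and 14 with library size alone. Without the HLA, pathway and class II genes, 44 of 86 fell and 6 rose, with a median of -0.61. Of all 102 genes, those with the smallest p were PSMB8, HLA-DRA (log2 fold change -2.23), a class II chain, and CLIC1 (-1.99), an intracellular chloride channel protein, among the genes that fell. Among those that rose they were MSH5 (1.27), a meiotic MutS homologue, PSORS1C1 (1.17) and DDX39B (0.74), an RNA helicase of mRNA export.

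The genes of this interval are short, with a median span of 9.14 kb against 33.9 kb for tested protein-coding genes. The median span of the 9 genes was 13.2 kb. Over all tested protein-coding genes the median log2 fold change was -0.64 for spans under 10 kb, -0.33 from 10 to 30 kb, -0.09 from 30 to 100 kb and 0.14 from 100 kb. The share that fell was 48.4, 40.0, 27.0 and 12.8% in the same order. HLA-C and TAP1 (3.38 and 8.61 kb) lay below the 10th percentile of their class, which was -1.82, and HLA-B lay below that of its class, -1.41. HLA-E, B2M, HLA-F, TAP2 and TAPBP lay between the 25th and the 75th percentile of their classes, and NLRC5 (94.0 kb) was above the 75th. The fold changes moved with the span, whereas the share of reads outside exons differed between the groups and cannot be told apart from EV against PRL3. The part of the span and of this share in the values of the 9 genes was not tested.

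**Figure D4:**
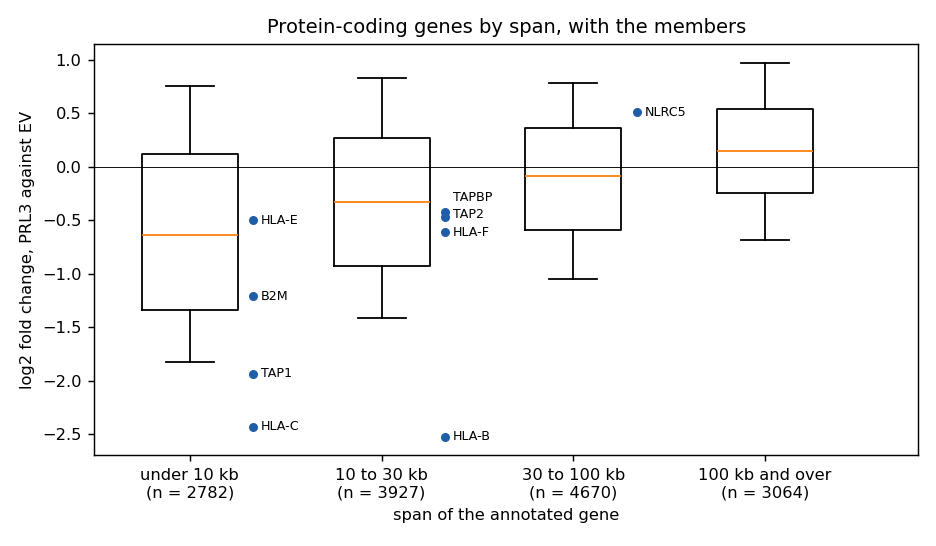
Log2 fold change of PRL3 against EV for tested protein-coding genes in 4 classes of gene span (boxes from the 25th to the 75th percentile with the median, whiskers to the 10th and 90th percentile), with the 9 genes as blue points. HLA-B, HLA-C and TAP1 lie below the whiskers of their classes, and NLRC5 lies above the box of its class.

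The scaling of the libraries shifted all 9 genes together. With library size alone, without the correction for composition, the median of all tested genes was 0.60 instead of 0.11. Under it HLA-E was at -0.01, TAP2 at 0.02 and TAPBP at 0.07, so the direction of these last genes was not stable. With all uniquely aligned reads as library size the median of all genes was -0.36 and the median of the 9 genes -1.09. HLA-B (-3.00 to -2.03), HLA-C (-2.91 to -1.94), TAP1 (-2.41 to -1.45) and B2M (-1.70 to -0.72) had negative values in all 15 other fits, which use the same libraries on which the genes were picked. The order of the 9 genes was the same under each of the scalings plotted. Over all tested genes, 5426 fell and 4783 rose with TMM, 3078 fell and 9514 rose with library size alone, and 8473 fell and 1952 rose with all uniquely aligned reads as library size.

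**Figure D5:**
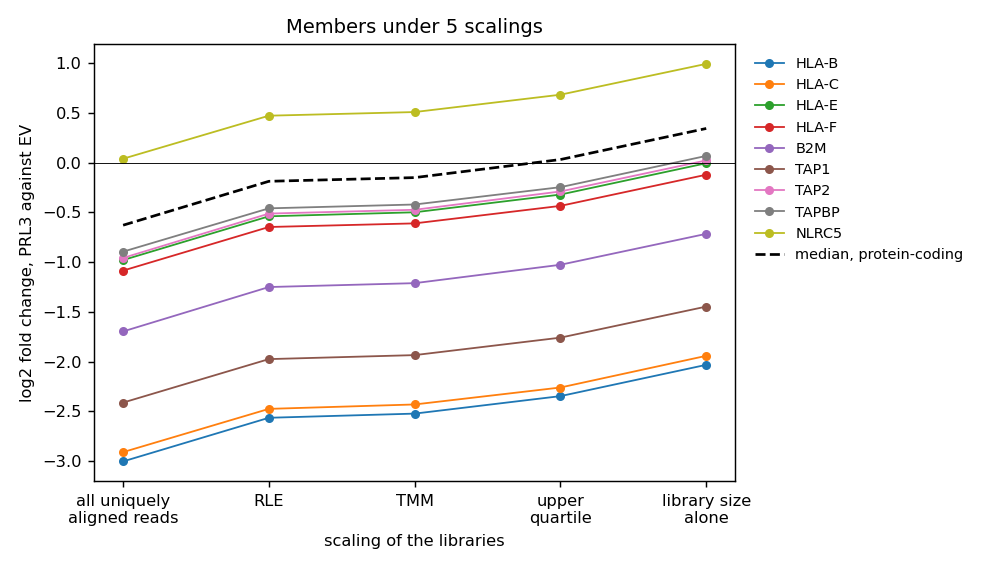
Log2 fold change of PRL3 against EV for the 9 genes under 5 scalings of the libraries, with the median of tested protein-coding genes as a dashed line. HLA-B, HLA-C, TAP1 and B2M stay below the dashed line and below zero throughout, NLRC5 stays above both, and TAP2 and TAPBP cross zero with library size alone.

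Across the 6 libraries the mean log2 profile of the 9 genes was most like that of EXT2, a heparan sulfate polymerase, CSTB, a cysteine protease inhibitor, CAPS, ZDHHC5, a palmitoyltransferase, and TGM2, a transglutaminase, with Pearson's r of at least 0.9995. The libraries fall into 2 groups, and 627 of 14310 protein-coding genes had an r over 0.99, so such a likeness mainly reflects the difference between EV and PRL3.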

How the data were processed

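4sU-seq libraries of 3 EV and 3 PRL3 samples were analysed, grouped by their titles. The submitters' processing notes name FastQC 0.11.3, STAR 2.5.1b and HTSeq 0.6.1. The authors deposited raw read counts per gene (Ensembl release 91), and reads on no exon or on several genes are held in separate lines of the deposited counts, which were left out of library sizes and tests. Of 58243 identifiers, 57532 were matched to GENCODE release 44 on the same build, GRCh38. Counts were filtered with filterByExpr, scaled by TMM and fitted with edgeR 4.0.16 (quasi-likelihood test, two-sided, Benjamini-Hochberg over 23884 genes, threshold 0.05) in R 4.3.3. The method was tested on simulated data. Normalized counts are counts divided by relative TMM-scaled library size. Other scalings, filters, DESeq2 1.42.0, limma 3.58.1 (voom), a threshold of 0.01 and leaving out each library were tried. The 9 genes, the lists and the naming rule were chosen with earlier results of these data known. The rule named every one of the 9 genes, a fixed set of pathway genes, and the 6 fallen and 6 risen genes with the smallest p among those whose groups did not overlap (only 4 had risen), and genes named outside it are marked as picked after their values were seen. A few listed genes are not reported here and were left out of the lists and sums.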

Additional observations from a re-analysis of the deposited data

Results flagged for a closer look

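The share of uniquely aligned reads on no annotated exon, which enters no gene count, was 33.3% ± 6.75 in EV and 66.3% ± 3.18 in PRL3 (SD, n = 3). It drew attention because it is a signal outside the gene counts that lies above the control level. All 3 PRL3 libraries were above all 3 EV libraries. Its part in the values of the class I genes was not tested.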

How the results depend on the processing

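No paired analysis was possible because no replicate number occurs in both EV and PRL3. At an adjusted p of 0.01, 2719 genes and 1 pathway gene rose. With upper-quartile scaling 7 pathway genes rose and the median of the 9 genes was -0.44 and the summed class I heavy chain reads changed by -1.23 (log2). With library size alone, 3078 genes fell and 9514 rose, 18 pathway genes and 14 MHC region genes rose, the median of the 9 genes was -0.12, and the sum changed by -0.91. TAP2 reversed to 0.022 under it and TAPBP, not past the threshold in either, was at 0.067, while CANX, ERAP1 and RFX5 were no longer called. With all uniquely aligned reads as library size, 8473 genes fell and 1952 rose, 40 pathway genes fell and 1 rose, 2 MHC region genes rose, the median was -1.09 and the sum -1.88. NFYC (-0.066), TAPBPL (-0.25) and CIITA (-0.21) reversed there, of which only NFYC was called with TMM. With protein-coding genes only, 8 pathway genes rose, the median was -0.43 and the sum -1.22. Leaving out 1 library at a time gave 4306 to 5869 genes that fell and 3200 to 5940 that rose, 23 to 26 pathway genes that fell and 1 to 8 that rose (1 without PRL3 B10, 2 without PRL3 B11, 8 without EV B1), 50 to 57 MHC region genes that fell and 5 to 8 that rose, a median of the 9 genes of -0.76 to -0.56 and a sum of -1.50 to -1.30. The cause of these shifts was not tested. HLA-F, HLA-G and the pseudogenes have few reads, which limits the precision of their values.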
